A study of Mus musculus with 4 samples.

Results

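The genes described here are Nfe2l2, which encodes the transcription factor Nrf2, its sensor Keap1, and 8 target genes of Nrf2 that act in glutathione, thioredoxin and quinone handling: Gclm, Gclc, Nqo1, Slc7a11, Srxn1, Txnrd1, Gsr and Pir. They were taken by symbol from the gene list of the deposited files, and all 10 were found among 32285 genes. They were chosen by their measured isoproterenol ratios in these libraries as well as by their known roles, so each of those ratios is a description of the libraries and not a test.

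Nrf2 is held in the cytoplasm by Keap1, which brings it to a Cul3 ubiquitin ligase for degradation. When reactive cysteines of Keap1 are modified by oxidants or electrophiles, Nrf2 escapes, enters the nucleus and, paired with a small Maf protein, binds antioxidant response elements near its target genes. In myeloid cells the targets replenish glutathione and thioredoxin and limit oxidative damage, and because Nrf2 is controlled largely through the stability of the protein, the mRNA of Nfe2l2 and the mRNAs of its targets need not move together.

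Myeloid-derived suppressor cells (MDSCs) were grown from mouse bone marrow for 4 days in GM-CSF plus IL-6, both at 40 ng/ml, and live cells sorted for CD11b were profiled by single-cell RNA sequencing. The 4 libraries, 1 per group, came from wild-type marrow or from marrow of knockout (KO) mice on the C57BL/6 background, each grown with or without isoproterenol (ISO, 10 µM), a β-adrenergic agonist. They are called WT+PBS, WT+ISO, KO+PBS and KO+ISO, after the sample titles, and the genotype is not verified by the values given here. For all 4 samples the labelled treatment is isoproterenol, which conflicts with the titles, and the titles were followed. The donors were young mice, of both sexes by the study's methods and female by its list of animals, and in each library Xist was at 359 to 389 CPM and the Y-linked Ddx3y at no more than 7 UMIs. The number of mice behind a library is not given in the sources used here.

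After filtering, 9303 cells remained, 2039 to 2790 per library, with 19357824 to 29400468 unique molecular identifiers (UMIs) per library and medians of 7484 to 10252 UMIs per cell. No cell barcode was shared between libraries, and within each library 99.61 to 100% of cells had the tag of their own library as their highest multiplexing tag. By the study's methods the cell suspensions were pooled before loading. Assignment of cells by tag would give both results, so neither is a check of sample identity. Levels are UMIs of a gene summed over a library and given per 1000000 of all its UMIs (CPM). Each group is a single library, so replicates are lacking and nothing between groups could be tested. All intervals are 95% intervals for counting error alone, and a pooled level cannot separate fewer cells of a type from less RNA per cell. The myeloid check genes Itgam, Ptprc and Lyz2 together held 2968 to 3704 CPM, and 3 of 4 erythroid markers were at 0 in every library. Eosinophil markers summed to 56.4 CPM in WT+PBS, 3.03 CPM in WT+ISO, and 78.5 and 4.34 CPM in the libraries labelled KO+PBS and KO+ISO, and their part in the results was not tested.

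The promoters of the members were searched for the core of the antioxidant response element, written TGACNNNGC, on both strands of the 250 bases before each RefSeq start (GRCm38.p6). RefSeq windows were at hand for 8 of the 10 genes, with 3 starts for Txnrd1 and none for Gclc or Gsr. The core occurred before Nfe2l2, Gclm, Pir and the second start of Txnrd1, and it did not occur before Keap1, Nqo1, Slc7a11 or Srxn1. Across all 32851 promoter windows of this length, 10.2% hold it. The sequences are shown because these genes moved to different degrees with ISO. Each is given in the direction of transcription, with the 9 matching bases in capitals, which read as the reverse complement of the core in Gclm, Txnrd1 and Pir. For Nfe2l2 the bases just after the start used were found in 0 of its annotated transcripts, unlike those of the other windows. Its start is therefore less certain. The first of the sequences, on chromosome 2, lies upstream of Nfe2l2 (chr2:75704885-75704913, minus strand).
Nfe2l2: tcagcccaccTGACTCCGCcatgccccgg
The match in Gclm ends 125 bases before the start used here and lies upstream of the gene (chr3:122245413-122245441, plus strand).
Gclm: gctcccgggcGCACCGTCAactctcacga
The Txnrd1 match is within the annotated span of the gene, 83 bases before its second start (chr10:82859104-82859132, plus strand).
Txnrd1: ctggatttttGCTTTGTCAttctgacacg
Pir and Nqo1 had the highest ISO ratios along with Gclm, and their whole windows are shown, 1 with the core and 1 without. That of Pir is chrX:164269181-164269430 on the plus strand, immediately upstream of the gene.
Pir: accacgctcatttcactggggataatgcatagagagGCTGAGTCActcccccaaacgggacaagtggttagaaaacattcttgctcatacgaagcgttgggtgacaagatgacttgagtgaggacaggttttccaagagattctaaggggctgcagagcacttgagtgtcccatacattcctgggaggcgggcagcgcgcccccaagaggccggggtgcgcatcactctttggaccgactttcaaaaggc
That of Nqo1 is chr8:107403206-107403455 on the minus strand, also immediately upstream.
Nqo1: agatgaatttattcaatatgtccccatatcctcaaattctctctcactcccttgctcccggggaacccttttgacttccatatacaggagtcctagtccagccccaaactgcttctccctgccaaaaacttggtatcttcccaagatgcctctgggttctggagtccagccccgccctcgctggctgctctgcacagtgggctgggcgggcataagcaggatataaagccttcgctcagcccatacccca
A match of these letters is no evidence of binding, and a window without them says nothing of elements farther away.

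The ISO comparison within each genotype asked whether the drug changed the antioxidant genes, and the genotype comparison set that change in WT against that in KO. In the libraries labelled WT, the mRNA of Nrf2 itself was lower with ISO while all 8 targets were higher. In the libraries labelled KO the ratios of the 8 targets were also above 0, with an interval that included 0 for Srxn1 and smaller ratios than in WT for Gclm, Nqo1 and Pir, and that of Nfe2l2 was slightly above 0. The intervals of Keap1 included 0 in both genotypes.

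Nfe2l2 (chromosome 2, 75675513 to 75704663) was found at 154 CPM in WT+PBS, 117 in WT+ISO, 143 in the library labelled KO+PBS and 156 in that labelled KO+ISO. WT+ISO stood below the other 3 libraries, whose counting intervals spanned 138 to 162 CPM. The ISO over PBS ratio on the log2 scale was -0.40 (-0.47 to -0.34) in WT and 0.13 (0.06 to 0.20) in KO, a difference of -0.53 (-0.63 to -0.44). Neither ratio passed the size rule used here. The rule is a log2 ratio of at least 0.5 or at most -0.5 with at least 100 UMIs in the 2 libraries. Differences of at most -0.5 were found in 7.12% of 10551 genes, and 664 genes had a difference below that of Nfe2l2.

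Keap1 (chromosome 9, 21229730 to 21239332), the adaptor that targets Nrf2 for degradation, was found at 36.2, 39.3, 33.5 and 31.4 CPM in WT+PBS, WT+ISO and the libraries labelled KO+PBS and KO+ISO. Its log2 ISO ratio was 0.12 (-0.01 to 0.24) in WT and -0.09 (-0.24 to 0.05) in KO. Both intervals included 0, so no difference with ISO was detectable at this depth. The KO ratio of Keap1 depended on how cells were weighted, at -0.31 with equal weight per cell and -0.58 with cells thinned to 2000 UMIs each. Between genotypes the ratios differed by 0.21 (0.02 to 0.40).

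**Figure D1:**
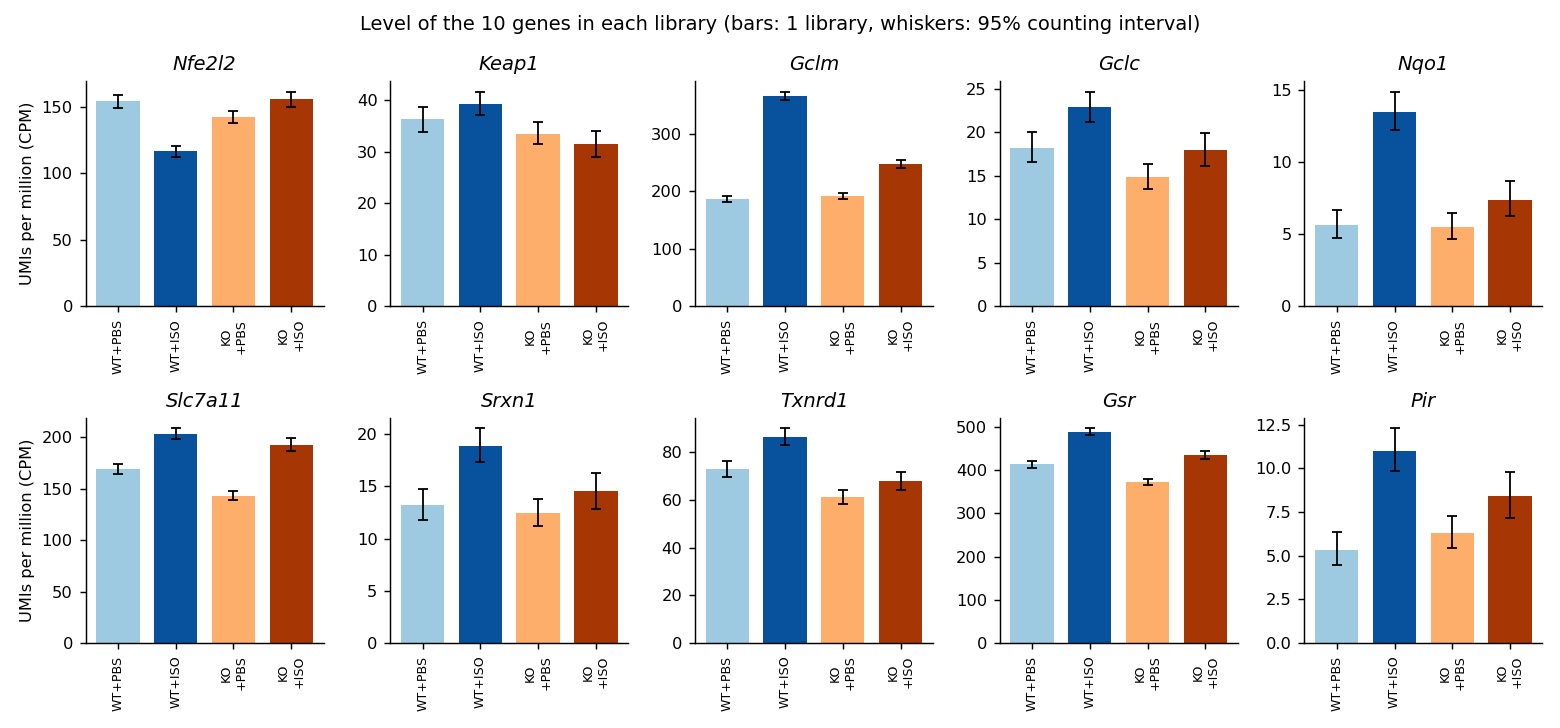
Level of each of the 10 genes (CPM, each panel with its own axis from 0) in the 4 libraries, with 95% counting intervals. WT+ISO is the lowest library for Nfe2l2 and the highest for all 8 targets, and Gclm runs from 187 to 366 CPM in WT.

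Glutathione synthesis starts with glutamate-cysteine ligase, whose modifier subunit is encoded by Gclm and whose catalytic subunit by Gclc. Gclm (chromosome 3, 122245487 to 122267215) was counted 4560 times in WT+PBS, 10758 times in WT+ISO, 5486 times in the library labelled KO+PBS and 4798 times in that labelled KO+ISO. In CPM these were 187, 366, 192 and 248. The 2 PBS libraries lay close together, WT+ISO stood well above every other library, and the library labelled KO+ISO lay between. The level of Gclm was 1.96-fold higher with ISO in WT, a log2 ratio of 0.97 (0.92 to 1.02), and 1.29-fold higher in KO, 0.37 (0.31 to 0.42). The difference was 0.60 (0.53 to 0.68), beyond counting error. The 10 cells richest in Gclm held 3.23 to 4.54% of its UMIs in a library.

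Gclc (chromosome 9, 77754535 to 77794489) was much less often counted, with 348 to 673 UMIs in a library. Its levels were 18.2 and 22.9 CPM in WT+PBS and WT+ISO, and 14.8 and 18.0 CPM in the libraries labelled KO+PBS and KO+ISO. The log2 ISO ratio was 0.33 (0.15 to 0.50) in WT and 0.28 (0.07 to 0.48) in KO, and the difference of 0.05 (-0.22 to 0.32) was within counting error. With thinned cells the KO ratio of Gclc turned to -0.36. The 2 subunits of the ligase thus differed in the size of their pooled WT ratios, whose intervals did not overlap. Within the cell clusters described below, the order of the 2 varied.

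Slc7a11 (chromosome 3, 50364936 to 50499087) encodes the light chain of the cystine-glutamate exchanger that brings in cystine for glutathione. It was found at 169 CPM in WT+PBS, 203 CPM in WT+ISO, and at 143 and 193 CPM in the libraries labelled KO+PBS and KO+ISO. Among the 8 targets it was the only one whose pooled ratio was lower in WT, 0.27 (0.21 to 0.32), than in KO, 0.43 (0.37 to 0.49). That order turned when the cell clusters described below were held at fixed weights: the ratio was then 0.64 in WT and 0.41 in KO, a difference of 0.23 in place of -0.16. With equal weight per cell it was -0.45, and with thinned cells -0.32. Leaving out the Gpnmb cluster, where the mean CPM of Slc7a11 was highest, gave a difference of 0.04. The share of cells in that cluster was 26.3% in WT+PBS against 15.8% in WT+ISO, and 18.7 and 19.8% in the libraries labelled KO+PBS and KO+ISO.

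Gsr (chromosome 8, 33653238 to 33698162), which encodes glutathione reductase, was counted 8428 to 14360 times per library. It was found at 414 and 488 CPM in WT+PBS and WT+ISO, and at 373 and 435 CPM in the libraries labelled KO+PBS and KO+ISO. The log2 ISO ratios of 0.24 (0.20 to 0.28) and 0.22 (0.18 to 0.26) were nearly equal in the 2 genotypes, with a difference of 0.02 (-0.04 to 0.07).

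The thioredoxin arm was represented by Txnrd1, the cytosolic thioredoxin reductase, and Srxn1, sulfiredoxin, which restores over-oxidised peroxiredoxins. Txnrd1 (chromosome 10, 82833951 to 82897724) was found at 73.1 and 86.7 CPM in WT+PBS and WT+ISO, and at 61.1 and 68.0 CPM in the libraries labelled KO+PBS and KO+ISO. Its log2 ISO ratio was 0.24 (0.16 to 0.33) in WT and 0.15 (0.05 to 0.26) in KO, and the difference of 0.09 (-0.04 to 0.23) was within counting error. Txnrd1 shares its locus with Gm38560 and Eid3, and how reads in the overlap were counted was not examined. Srxn1 (chromosome 2, 152105524 to 152111376) was found at 13.2, 18.9, 12.4 and 14.5 CPM in WT+PBS, WT+ISO and the libraries labelled KO+PBS and KO+ISO. Its ratio was 0.52 (0.32 to 0.72) in WT and 0.22 (-0.01 to 0.45) in KO, with a difference of 0.30 (-0.01 to 0.60).

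Nqo1 and Pir were the scarcest members and had the highest WT ratios. Nqo1 (chromosome 8, 107388225 to 107403205), a quinone reductase widely used as a readout of Nrf2, was counted 137 times in WT+PBS, 396 times in WT+ISO, 157 times in the library labelled KO+PBS and 143 times in that labelled KO+ISO. These were 5.62, 13.5, 5.50 and 7.39 CPM, and WT+ISO alone stood apart from the other 3. The log2 ratio was 1.26 (0.98 to 1.55) in WT and 0.43 (0.09 to 0.76) in KO, a difference of 0.84 (0.41 to 1.27). Pir (chromosome X, 164269431 to 164373013) encodes pirin, an iron-binding nuclear protein with quercetinase activity. Its counts of 130, 324, 180 and 163 in the same order of libraries were 5.33, 11.0, 6.30 and 8.42 CPM. The ratio was 1.05 (0.75 to 1.35) in WT and 0.42 (0.10 to 0.73) in KO, a difference of 0.63 (0.21 to 1.05). The 10 richest cells of a library held 8.59 to 17.2% of the UMIs of Nqo1 and at least 12.8% of those of Pir.

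**Figure D2:**
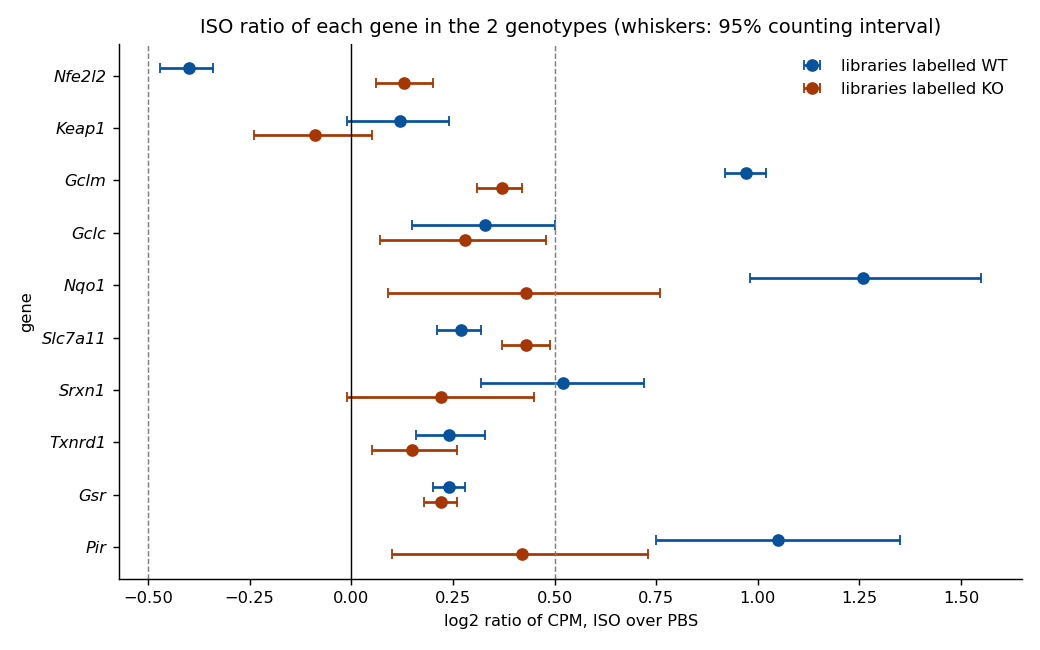
Log2 ratio of ISO over PBS for each gene in the libraries labelled WT (blue) and KO (brown), with 95% counting intervals, a solid line at 0 and dashed lines at the size rule of 0.5. The intervals of Gclm, Nqo1 and Pir lie higher in WT without overlap, those of Slc7a11 lie lower in WT without overlap, and Nfe2l2 lies on opposite sides of 0.

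Over the 8 targets the median log2 ISO ratio was 0.423 in WT, with 8 of 8 above 0, and 4 of them (Gclm, Nqo1, Srxn1 and Pir) passed the size rule. With clusters at fixed weights this median was 0.732. Among all 10771 genes with enough UMIs, 1.76% passed it in the higher direction and 6.81% in the lower one. In KO the median was 0.322 and again 8 of 8 were above 0, 7 of them with intervals above 0. Here 0 targets passed the rule, where 1.04% of 10734 genes were that much higher and 1.60% that much lower. That count of 0 did not hold under every alternative: Slc7a11 (0.67) and Pir (0.57) passed with equal weight per cell, and Nqo1 (0.83), Slc7a11 (0.59) and Pir (0.52) with thinned cells. The median difference between the genotypes was 0.193, with 7 of 8 differences above 0, 3 of them at least 0.5 and 1 interval, that of Slc7a11, below 0. The median was 0.412 at fixed weights, where Srxn1 also passed at 0.57. With thinned cells the differences of Nqo1 and Pir were 0.30 and 0.24, under the rule, and that of Gclm was 0.53. Differences of at least 0.5 were found in 3.13% of 10551 genes and of at most -0.5 in 7.12%. The median over all genes tested was -0.016 in WT, -0.039 in KO and 0.007 for the difference. Shares over all genes are given for the size rule only, and were not made for ratios or intervals above 0. The rule that chose the members used these contrasts, so nothing is read from any of these counts.

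The targets spread over the upper range of the WT ratios. Nqo1 had 4 genes above it among those tested, Pir 8, Gclm 12 and Srxn1 167. Gclc had 577 genes above it and Slc7a11 880, while Txnrd1 and Gsr had 1024 and 1065. At the other end, Nfe2l2 had 1046 genes below it. In KO the members closest to the top were Slc7a11, with 169 genes above it, Nqo1 with 172 and Pir with 180.

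**Figure D3:**
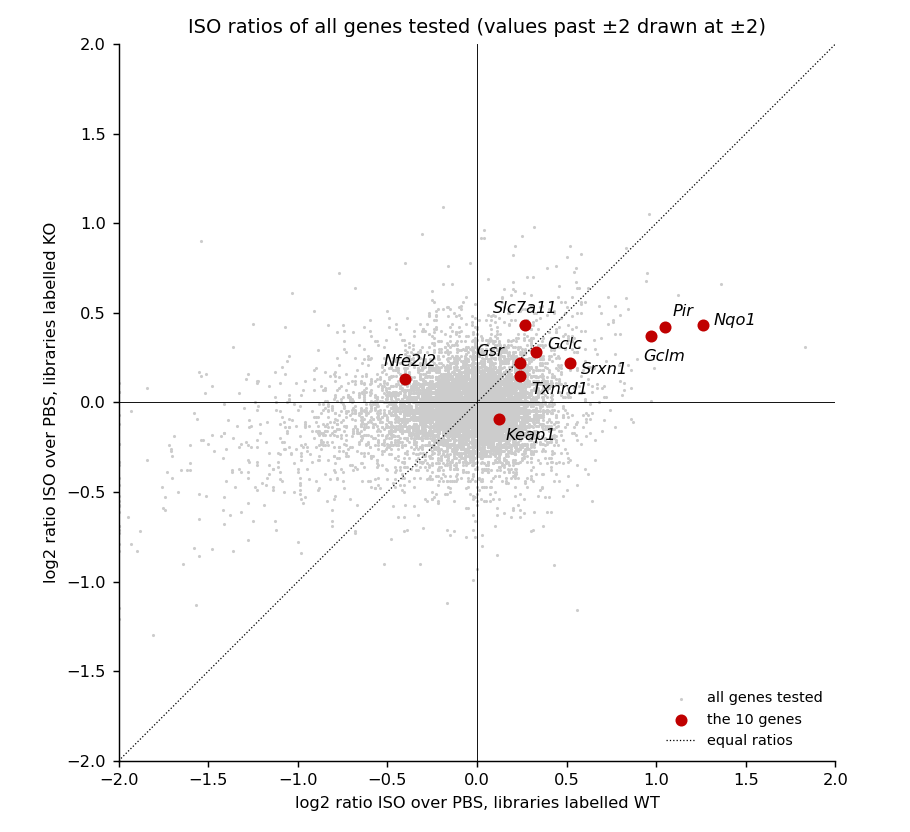
Log2 ISO ratio of every gene tested (grey) in the libraries labelled WT (x axis) and KO (y axis), with the 10 genes in red and a dotted line of equal ratios. Nqo1, Pir and Gclm lie at the far right at 0.97 to 1.26 in WT but at 0.37 to 0.43 in KO, and Nfe2l2 is the member left of 0.

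Without ISO, the genotypes were compared directly. The log2 ratio of the library labelled KO+PBS over WT+PBS was 0.04 (-0.02 to 0.10) for Gclm, -0.03 (-0.37 to 0.31) for Nqo1, -0.09 (-0.31 to 0.14) for Srxn1 and 0.24 (-0.09 to 0.58) for Pir. The intervals of these 4 included 0. The other 4 targets were lower where the label gives the deletion, with -0.30 (-0.49 to -0.10) for Gclc, -0.26 (-0.36 to -0.16) for Txnrd1, -0.24 (-0.30 to -0.18) for Slc7a11 and -0.15 (-0.19 to -0.11) for Gsr. With clusters at fixed weights these 4 were at -0.22, -0.32, -0.31 and -0.05 in the same order. Nfe2l2 and Keap1 each had a pooled ratio of -0.11, with intervals of -0.18 to -0.05 and -0.25 to 0.02. None of the 10 passed the size rule, which 3.97% of 10861 genes passed in the higher and 2.59% in the lower direction. These ratios share their PBS libraries with the ISO ratios above.

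To follow the genes across cell types, all cells were clustered without the genes of the lists used here, which gave 9 clusters. Of these, 6 were named from fixed markers: specific-granule neutrophil-like cells led by Ltf (cluster 1) and by Ncam1, Camp and Ngp (cluster 5), macrophage-like cells led by Mrc1 and C1qb (2), mature neutrophil-like cells led by Retnlg and Mmp9 (4), azurophil-granule progenitor-like cells led by Mpo and Elane (6) and 80 dendritic cell-like cells led by Ccl5 and Ccr7 (8). The other 3 stayed unnamed, a cluster low in UMIs led by Gpnmb and Atp6v0d2 (0), one rich in UMIs led by Lypd6b and Rcn3 (3) and one led by stefin genes such as Stfa3 (7). The median UMI count per cell ran from 3138 in the Gpnmb cluster to 23494 in the Mpo cluster. With ISO in WT the share of cells was higher in clusters 1, 5 and 6 and lower in 0 and 2. The Ncam1 cluster went from 7.10 to 14.1% and the macrophage-like cluster from 14.3 to 8.52%, against 22.1 and 17.3% for the latter in the libraries labelled KO+PBS and KO+ISO. The summed macrophage markers followed, at 267, 158, 418 and 350 CPM in that order of libraries, and the azurophil-granule markers stood at 4162, 5440, 3092 and 2311 CPM. The part of these shares in the pooled ratios was not tested beyond the fixed weights.

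Gclm was higher with ISO in 9 of 9 clusters of WT, with 8 intervals above 0 and 8 clusters past the size rule. Within clusters the rule was used with a minimum of 20 UMIs in place of 100. No share over all genes was counted there, so nothing is read from counts of clusters past it. The ratio was highest in the macrophage-like cells, 1.64 (1.52 to 1.76), where the level went from 158 to 493 CPM in WT. The library labelled KO+PBS had 159 CPM there and that labelled KO+ISO 229 CPM, a ratio of 0.53 (0.41 to 0.64). In the stefin cluster the WT ratio was 1.31, and in the progenitor-like cells, the lowest of the large clusters, 0.68 (0.56 to 0.80). In KO Gclm was also higher in 9 of 9 clusters, with 7 intervals above 0. The WT ratio was the larger in 8 of 9 clusters, and the exception was the dendritic cell-like cluster, where only 13 to 24 UMIs were counted in a library.

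Nqo1 could be compared in 8 clusters of WT and was higher with ISO in 8 of 8, with 6 intervals above 0. In the macrophage-like cells it went from 4.82 to 22.1 CPM (log2 ratio 2.20, 1.53 to 2.91) and in the Gpnmb cluster from 6.51 to 26.9 CPM (2.05, from 15 and 44 UMIs). The libraries labelled KO gave 2.34 and 5.39 CPM in the macrophage-like cells (1.20, 0.31 to 2.11), the one interval above 0 of the 6 clusters compared in that genotype. Nqo1 was above 0 in 4 of those 6, and the WT ratio was the larger in 6 of 6. Pir was higher in 6 of 6 clusters of WT, each with an interval above 0, from 1.05 to 2.57. In KO it was above 0 in 4 of 4 clusters, from 0.19 to 0.86, with 0 intervals above 0.

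Srxn1 was higher with ISO in 7 of 7 clusters of WT, from 0.14 in the mature neutrophil-like cells to 1.45 in the Ltf cluster. Its ratio in KO was above 0 in 4 of 6 clusters, and was the smaller of the 2 in 6 of 6. Gclc spread widely where it was counted, with WT ratios of 0.00 (-0.46 to 0.46) in the Gpnmb cluster, 0.20 in the macrophage-like cells, 1.03 (0.66 to 1.41) in the Lypd6b cluster and 2.22 (0.51 to 4.59) in the Ltf cluster. The last of these rests on 3 UMIs in WT+PBS against 25 in WT+ISO. The 5 ratios above 0 were among 6 clusters in WT, against 4 of 7 in KO. In the Ncam1 cluster the WT ratio of Gclc was 1.22 (0.38 to 2.17), against 0.86 (0.66 to 1.05) for Gclm. In the macrophage-like cells that of Gclm was the higher, at 1.64.

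Slc7a11 was higher with ISO in 8 of 9 clusters of WT and in 7 of 9 of KO. In the Gpnmb cluster it went from 541 to 816 CPM in WT (0.59, 0.48 to 0.71) and from 314 to 583 CPM in the libraries labelled KO (0.89, 0.75 to 1.04). The Ltf cluster ran the other way, with a ratio of 1.18 (0.94 to 1.42) in WT and 0.36 (0.15 to 0.56) in KO. In the Ncam1 cluster the ratios had opposite signs, 0.45 (0.09 to 0.83) and -0.65 (-1.01 to -0.29). The WT ratio was the larger in 6 of 9 clusters although the pooled ratio was the smaller.

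Txnrd1 was higher with ISO in 9 of 9 clusters of WT, with 4 intervals above 0 and the highest ratios in the Ltf cluster, 0.80, and the macrophage-like cells, 0.69 (0.53 to 0.86). In KO it was above 0 in 7 of 9, also with 4 intervals above 0, and 4 clusters passed the size rule there against 3 in WT. The highest of these 4 was the dendritic cell-like cluster at 1.37 (0.50 to 2.27), which rests on 20 and 29 UMIs and would not count at a minimum of 100. Gsr was above 0 in 8 of 9 clusters of WT and 7 of 9 of KO, with no cluster past the size rule in the higher direction. Keap1 was above 0 in 6 of 8 and 3 of 8 clusters, and 1 of these 16 intervals, that of the progenitor-like cells in WT at 0.29 (0.03 to 0.55), lay above 0.

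Nfe2l2 was lower with ISO in 8 of 9 clusters of WT, with 3 intervals below 0. In the macrophage-like cells it went from 230 to 155 CPM (-0.57, -0.71 to -0.42), and in the mature neutrophil-like cells from 174 to 127 CPM (-0.46, -0.77 to -0.14). The libraries labelled KO gave 201 and 236 CPM in the macrophage-like cells (0.23, 0.12 to 0.34). In that genotype Nfe2l2 was above 0 in 7 of 9 clusters, with 3 intervals above 0. By point estimate, the macrophage-like cells of WT had the lowest ratio of Nfe2l2 and the highest ratios of Gclm and Nqo1. For each of these genes the interval overlapped that of another cluster, so the cluster is not set apart. The next WT ratios were -0.46 for Nfe2l2 in the mature neutrophil-like cells and 2.05 for Nqo1 in the Gpnmb cluster. For Gclm the next was 1.31 (1.02 to 1.61) in the stefin cluster, against 1.64 (1.52 to 1.76). The macrophage-like cells were 14.3% of cells in WT+PBS against 8.52% in WT+ISO, and the part of other changes within that cluster was not tested.

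**Figure D4:**
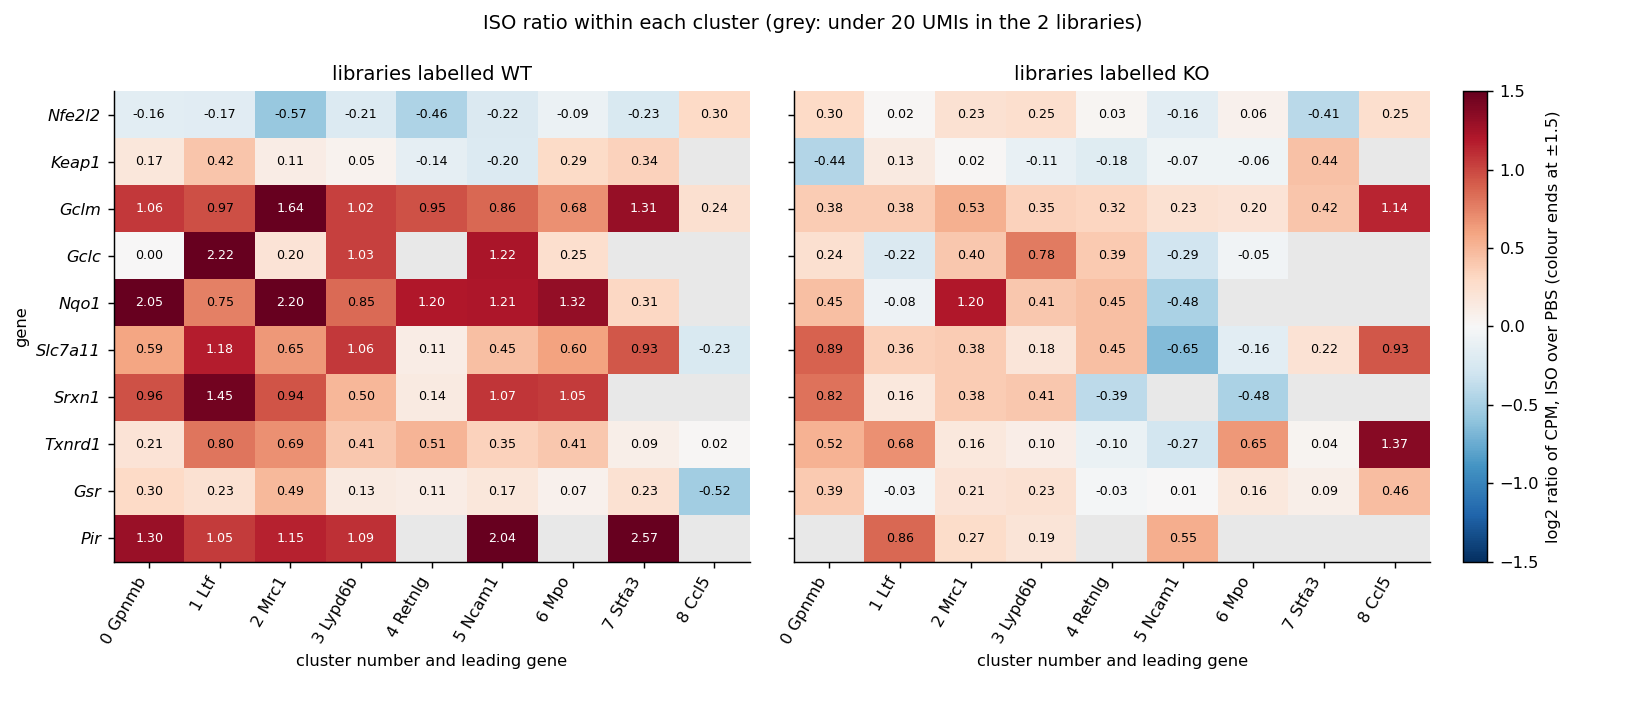
Log2 ISO ratio of each gene (rows) within each of the 9 clusters (columns) for the libraries labelled WT (left) and KO (right), red for higher with ISO and blue for lower, with the value in each cell and grey where under 20 UMIs were counted. The Gclm row is red throughout on both sides and darker on the left except in the Ccl5 cluster, while the Nfe2l2 row is blue in 8 of 9 clusters on the left only.

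The members also differed in the clusters where their levels in CPM were highest. A level in CPM is a share of the RNA counted and not an amount per cell. The Gpnmb cluster had the highest mean level of Nfe2l2, Gclm, Gclc, Slc7a11, Srxn1 and Gsr, and the macrophage-like cells that of Pir. The Gpnmb cluster also had the lowest median of UMIs per cell, 3138. Keap1 was highest in the progenitor-like cells. The mean of Nqo1 was highest in the mature neutrophil-like cells at 15.1 CPM, near the 13.7 CPM of the Gpnmb cluster. That of Txnrd1 was 122 CPM in the dendritic cell-like cluster (67.3 to 175 over the libraries) and 121 CPM in the macrophage-like cells. Among the members, only Gsr had a highest cluster set apart from the next by ranges over the libraries that did not overlap. The spread between clusters was greatest for Slc7a11, whose highest mean over the 4 libraries (564 CPM, Gpnmb cluster) was 16.8 times its lowest (33.5 CPM, progenitor-like cells). Gsr came next among the well counted genes at 13.3 times. Nfe2l2 and Keap1 varied least, by 2.71 and 2.34 times.

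The order of the clusters by mean level in CPM, which is not an order per cell, is given here for Gsr. It ran from 957 CPM in the Gpnmb cluster (792 to 1103 over the 4 libraries) through the mature neutrophil-like cells at 751 CPM (714 to 771) to the Ltf cluster at 536 CPM (486 to 568). The Ncam1, progenitor-like and stefin clusters followed at 508, 468 and 453 CPM without separating from one another. Below them came the Lypd6b cluster at 320 CPM (279 to 353), the macrophage-like cells at 198 CPM (172 to 242) and the dendritic cell-like cells at 71.7 CPM (43.8 to 108). In all, 5 of 8 neighbours in this order had ranges that did not overlap. Gclm and Nqo1 each had 1 such pair of neighbours, and the other 7 members had 0, since their ranges over the 4 libraries overlapped at every step. Gsr was also the best counted member. Such counts were not made over all genes, so nothing is read from them.

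**Figure D5:**
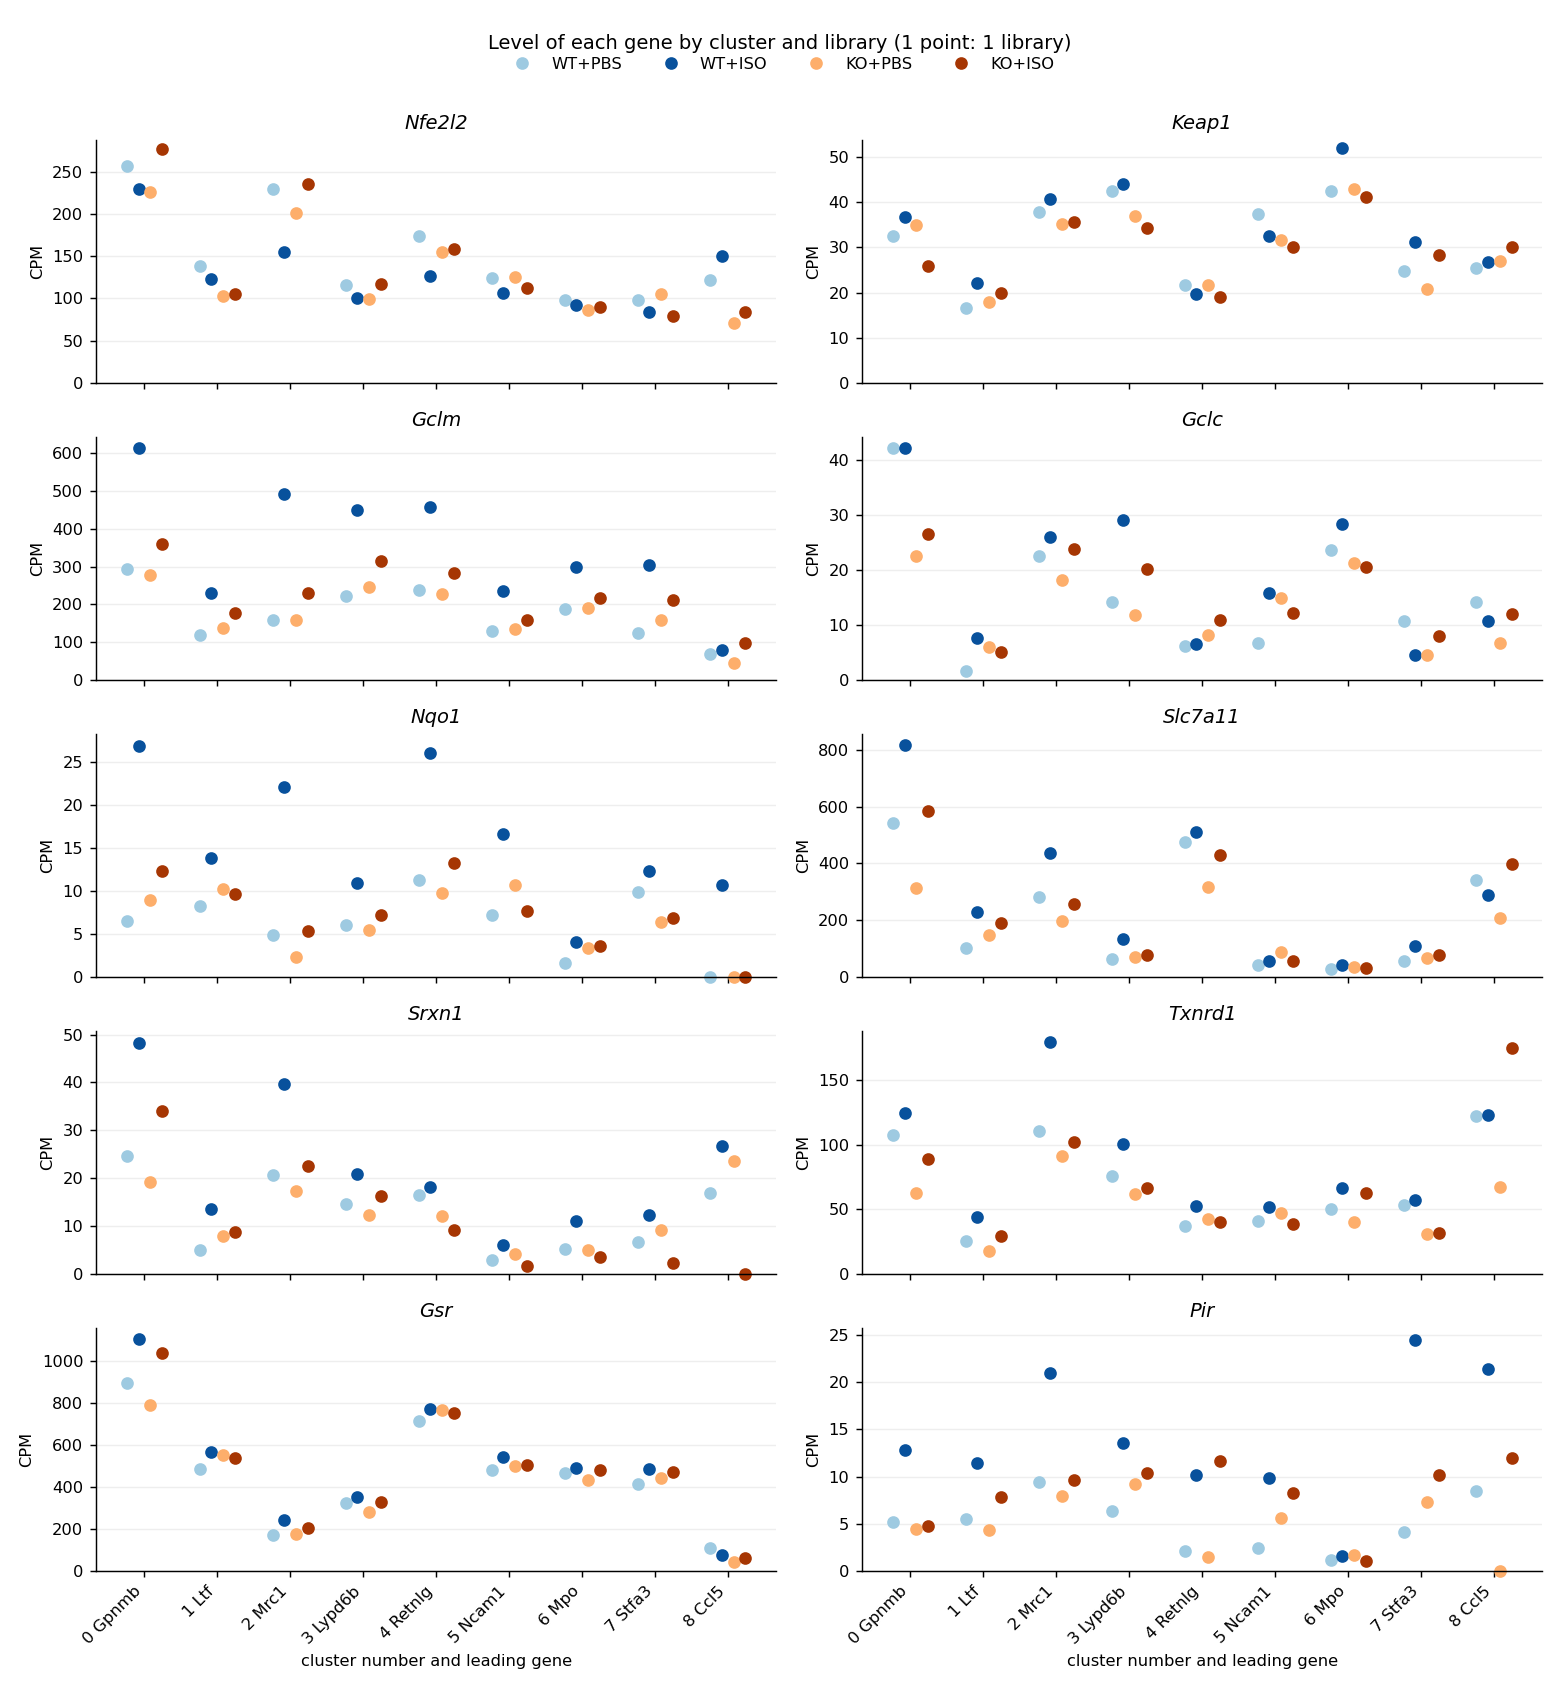
Level of each gene (CPM, each panel with its own axis from 0) by cluster, with 1 point for each of the 4 libraries. Gsr falls from 957 CPM in the Gpnmb cluster to 71.7 CPM in the Ccl5 cluster with little spread between libraries, whereas the dark blue points of WT+ISO stand above the rest in most clusters for Gclm and Nqo1.

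Likeness between patterns was described with Pearson correlations of log2(CPM + 1) over the 34 cluster-by-library groups with at least 20 cells. These groups share libraries and clusters, so no p-value is given. After centring within clusters, which leaves differences between the libraries, Gclm was closest to Nqo1 among the members (r = 0.83), followed by Slc7a11 (0.78) and Pir (0.75). Nfe2l2 had -0.45 with Nqo1 and -0.41 with Gclm, and from -0.35 (Keap1) to 0.25 (Gsr) with the other members. The differences left by centring include the ISO ratios by which the members were chosen. The correlations among members therefore restate those ratios and are no separate result. Among 9238 genes with at least 500 UMIs, the 3 most like Gclm on this measure were Esd (0.906), which encodes S-formylglutathione hydrolase, Ftl1 (0.891), the ferritin light chain, and Creg1 (0.879). For Nqo1 they were Cyb5a (0.842), Gclm (0.829) and Esd (0.828), for Slc7a11 Gclm (0.778), Mindy1 (0.753) and Esd (0.726), and for Gsr Pgd (0.878), Aldh2 (0.877) and Mgll (0.868). Pir was closest to Utp23 (0.827), Tst (0.806) and Mocs2 (0.799), Srxn1 to Ftl1-ps1 (0.772), Eif4e2 (0.772) and Pttg1 (0.754), and Txnrd1 to Rab5if (0.828), Psmd1 (0.827) and Tubb4b (0.824). The leading genes for Gclc were Ddx54 (0.777), Mrpl12 (0.685) and Wdr74 (0.673), for Keap1 Commd6 (0.790), Nubp2 (0.787) and Ssb (0.779), and for Nfe2l2 Chil1 (0.771), Plcb2 (0.748) and Xylt1 (0.737). Without centring, where differences between clusters dominate, Nfe2l2 was most like Tmem189 (0.930), Atp6v0d2 (0.916) and Cmklr1 (0.899), and Slc7a11 was most like Rabgef1 (0.942), Pla2g7 (0.936) and Sgpl1 (0.932).

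Other genes of the pathway were taken from fixed lists. Of 26 further Nrf2 targets, 22 had enough UMIs, and 3 of them were higher with ISO in WT by the size rule (1.76% of all genes): Hmox1, Osgin1 and Mgst2. Hmox1, heme oxygenase 1, was found at 69.6 and 134 CPM in WT+PBS and WT+ISO, and at 102 and 163 CPM in the libraries labelled KO+PBS and KO+ISO. Its ratio of 0.94 (0.86 to 1.02) in WT was close to that of Gclm, whereas its ratio of 0.68 (0.60 to 0.75) in KO was larger than that of any member. Osgin1, an oxidative stress growth inhibitor, had ratios of 0.63 (0.40 to 0.86) and 0.20 (-0.09 to 0.49), and Mgst2, a microsomal glutathione transferase, 0.51 (0.46 to 0.57) and 0.03 (-0.03 to 0.09). Sesn2, sestrin 2, was the 1 gene of the list lower by the rule, which 6.81% of all genes passed in that direction, with -0.73 (-0.94 to -0.52) in WT and 0.07 (-0.11 to 0.25) in KO, and Gstp1 had -0.29 (-0.59 to 0.00) in WT. In all 18 of 22 were above 0 in WT (median 0.15) and 16 of 22 in KO (median 0.08), where Hmox1 was the 1 gene past the rule. The share of all genes above 0 was not counted, so nothing is read from these counts. The medians over all genes tested were -0.016 in WT and -0.039 in KO. Me1, malic enzyme, fell short of the UMI minimum with 17, 68, 25 and 28 UMIs in WT+PBS, WT+ISO and the libraries labelled KO+PBS and KO+ISO.

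The genes that control Nrf2 came next, beside the 1.76% of all genes higher and 6.81% lower by the rule in WT, shares at which lists of this length would hold few calls or none. Of 10 genes for its sensing and turnover (Keap1 included), 0 passed the size rule in WT, with a median of 0.01, and the highest and lowest ratios were those of Syvn1 (0.33) and Fbxw11 (-0.20), followed by Sqstm1 (0.13) and Gsk3b (-0.17). Of 9 partners and rivals, 0 passed, with a median of -0.05. The small Maf gene Mafg had a WT ratio of 0.28 (0.19 to 0.37) against -0.01 (-0.10 to 0.09) in KO, Nfe2 had 0.24, Maff -0.28 and Nfe2l1 -0.19. The rival repressor Bach1 had -0.05 (-0.20 to 0.09) in WT and 0.16 (0.01 to 0.30) in KO.

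Of 13 further genes of the thioredoxin and glutathione systems, 0 passed the rule in WT, with a median of 0.03. Oplah (0.44) and Ggct (0.27), both of the glutathione cycle, were highest, and Chac1 (-0.40), which degrades glutathione, and Txnip (-0.31), the thioredoxin-binding protein, were lowest. Slc7a11 is also a known target of ATF4, whose part in the ratio of Slc7a11 was not tested. Of 10 ATF4 targets, 0 were higher by the rule in WT and 1 was lower, with a median of -0.12. At the shares of 1.76 and 6.81% over all genes, a list of this length would hold few calls or none. Trib3, a pseudokinase, had a ratio of -0.51 (-0.73 to -0.28) in WT and 0.07 (-0.11 to 0.25) in KO, and Asns, asparagine synthetase, -0.48 and -0.22. Phgdh (0.24) and Psat1 (0.05), of serine synthesis, were the highest of that list. Acod1, whose product itaconate can modify Keap1, was found at 13.7 and 11.2 CPM in WT+PBS and WT+ISO, and at 12.2 and 16.2 CPM in the libraries labelled KO+PBS and KO+ISO. Its pooled ratio was -0.30 (-0.52 to -0.08) in WT and 0.41 (0.18 to 0.63) in KO. The Gpnmb cluster held the most Acod1 UMIs and a smaller share of cells in WT+ISO than in WT+PBS. Of the 6 clusters compared in WT, 2 had Acod1 ratios above 0. These were the Gpnmb cluster at 0.39 (0.03 to 0.74) and the macrophage-like cells at 0.71 (0.06 to 1.36). The KO ratios there were 0.97 (0.56 to 1.38) and 0.79 (0.25 to 1.33). In the Ltf and Ncam1 clusters the WT ratios were -1.39 (-2.17 to -0.63) and -1.35 (-2.26 to -0.45). The KO ratios there were -0.06 and -0.93. The part of cluster shares in the pooled ratio was not tested.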

How the data were processed

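The authors deposited unnormalized UMI counts, written by Cell Ranger 7.0.0 per the file headers. The submitters' processing notes name Cell Ranger 6.0.0, mm10 and Seurat. The files list 9525 barcodes in 4 libraries, called as cells by the authors, and 12 multiplexing tags, which were left out of the levels. Groups were taken from the sample titles. The gene deleted in the knockout mice is not reported here. Here, cells were kept that had 200 genes or more and no more than 10% of UMIs from mitochondrial genes. Counts were summed per library or per cluster and divided by the total UMIs (CPM). Log2 ratios were given with exact conditional binomial 95% intervals, levels with exact Poisson intervals, and differences of ratios with normal intervals from the 4 counts. The intervals were tested on simulated Poisson counts, which they assume, so the test says nothing of spread between cells or cultures. A value of 100 UMIs in the 2 libraries was the minimum across all genes, and 20 UMIs within clusters.

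Cells were scaled to 10000 counts, log-transformed and clustered with scanpy 1.11.5 (2000 variable genes without the listed genes, 30 components, 15 neighbours, Leiden resolution 0.4, seed 0). Clusters were named where at least 3 markers were detected in 10% of cells, the mean log2 ratio of the markers reached 1 and 1 or more stood among the 10 leading genes. Scrublet called 17 cells doublets (0.183%, against 6% expected, too few for the caller to be relied on), and they were kept. Duplicated symbols (Ddit3, Nnt) were taken from the entry with the most UMIs, and Cars1 was found under its older symbol Cars. Gene spans come from RefSeq GRCm38.p6. Beyond the members, each list is named by its 2 highest and 2 lowest WT ratios, with Mgst2, Bach1 and Me1 added after their values were seen. The members and lists were chosen with earlier results of these data known. The alternatives were other filters on cells, doublet removal, other scalings, equal weights per cell, fixed cluster weights, thinning to 2000 UMIs and other clusterings.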

Additional observations from a re-analysis of the deposited data

Results flagged for a closer look

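Nfe2l2 moved in opposite directions with ISO in the 2 genotypes, with a log2 ratio of -0.40 in the libraries labelled WT and 0.13 in those labelled KO, and both intervals left out 0. The same held for Txnip at -0.31 and 0.20, Acod1 at -0.30 and 0.41 and Phgdh at 0.24 and -0.14, and for Gstm1 at 0.41 and -0.13 and Txn1 at 0.13 and -0.07, the last pair picked after their values were seen. How many of all genes moved in opposite directions was not counted, so these genes are not set apart from the rest. With 1 library per group the difference between the genotypes was not tested. Outside the gene counts, each library was dominated by a multiplexing tag of its own, as assignment of cells by tag would give. That tag held 95.4% of tag UMIs in WT+PBS, 97.1% in WT+ISO, 98.0% in the library labelled KO+PBS and 89.8% in that labelled KO+ISO. A tag assigned to none of the 4 libraries, CMO309, had 1095 UMIs in 829 cells of the library labelled KO+PBS and 15 to 17 UMIs in the others.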

How the results depend on the processing

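Under 9 alternatives, 8 planned and 1 added after seeing the data (leaving out the cluster of lowest median UMIs), the ISO ratios of Gclm ran from 0.94 to 1.11 in WT and 0.36 to 0.46 in KO, those of Nqo1 from 1.13 to 1.39 and 0.27 to 0.83, those of Pir from 0.75 to 1.28 and 0.40 to 0.57, and those of Nfe2l2 from -0.51 to -0.30 and 0.10 to 0.17. The planned removal of clusters low in UMIs per cell found 0 clusters under its limit and gave no value. All 8 targets kept a WT ratio above 0 under each of the 9, while Keap1, whose interval included 0, came to -0.01 in WT and -0.58 in KO with thinned cells. Weighting cells equally gave differences of -0.31 for Gclc, -0.03 for Txnrd1 and -0.12 for Gsr, and thinning gave -0.06 for Gsr, and the intervals of these 3 differences had included 0. In KO Gclc turned to -0.36 with cells thinned to 2000 UMIs, and the difference for Slc7a11 ran from -0.45 to 0.23, turning to 0.23 with clusters at fixed weights and 0.04 without the cluster of lowest UMIs. The median of the 8 targets in WT was 0.732 and their median difference 0.412 at fixed cluster weights. The differences of Gclm ran from 0.52 to 0.75, those of Nqo1 from 0.30 to 1.11 and those of Pir from 0.24 to 0.88. With a minimum of 50 UMIs, 317 genes were higher by the size rule in WT, 251 higher and 320 lower in KO, 428 lower in the library labelled KO+PBS than in WT+PBS, and 508 had a difference of at least 0.5. Of 60 shares of clusters above 0 under other clusterings, 3 moved by over 1.5 times. Nfe2l2 in WT went from 1 of 9 to 3 of 14 at resolution 1.0 and 2 of 7 with 4000 variable genes. Keap1 in KO went from 3 of 8 to 1 of 7 with 30 neighbours. No scaling moved the median of all genes by over 0.1. No paired analysis was possible because a group holds a single library. Thinning left out 127 to 218 cells per library. Nqo1 and Pir, with 130 to 396 UMIs in a library, have the widest intervals, and no spread between cultures can be given.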
